A study of Homo sapiens with 18 samples.

Results

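The regions described here are places where Tn5 transposase reached the chromatin of SCC1 and SCC25 cells and where no accessible peak was called in SCC6 cells. SCC1 (UM-SCC-1), SCC6 (UM-SCC-6) and SCC25 are established head and neck squamous carcinoma lines, and each of the 3 stands for a single tumour. Cells received 100 nM cetuximab, an antibody that blocks the epidermal growth factor receptor EGFR, or the vehicle PBS, daily for 5 days, and chromatin was profiled by ATAC-seq with 3 replicates per line and treatment. The second SCC1 PBS replicate was not analysed here, so that 5 SCC1, 6 SCC6 and 6 SCC25 libraries entered, and nothing in the labels says that replicates were separate cultures, so p-values measure only the spread between these libraries. Of the 115087 regions in the merged table, 1032 (0.897%) overlapped by at least 1 base a peak in 3 or more SCC1 libraries and in 3 or more SCC25 libraries, both treatments counted, and none in any SCC6 library. These members covered 414727 bases, with a median width of 354 bases (160 to 1417) against 258 bases for all regions. The mirror sets were of different size. Peaks shared by SCC6 and SCC25 without SCC1 numbered 6559 by the same counts, and those shared by SCC1 and SCC6 without SCC25 numbered 706. Peaks per library ran from 13035 to 36033 in SCC1, 47441 to 101272 in SCC6 and 18642 to 81963 in SCC25. Absence was thus judged on unlike peak numbers, and the set sizes do not rank how alike the lines are.

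Tn5 inserts sequencing adapters where DNA is free of nucleosomes, so ATAC-seq marks promoters, enhancers and insulators that proteins hold open. Distal elements differ between cell types far more than promoters do. In squamous epithelium they are bound by the p63 member of the p53 family, by AP-1 (the FOS and JUN dimers downstream of EGFR and MAP kinase signalling), and by TFAP2, RUNX, TEAD and GRHL factors. A region without reads can be closed or can be missing from the genome of that line, and read counts alone cannot tell these apart.

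The DNA of a few members is given first, because their signal separated the lines widely. All are on the plus strand of hg19 (GRCh37), each is the 300 bases on the region's centre or the exon-free part of it, and capitals mark TGANTCA for AP-1, GCCNNNGGC for TFAP2, TGTGGT for RUNX proteins, AGATAA for the erythroid and epithelial GATA factors, and the p53 family decamer, on either strand. The regions near PRPS1 and PDCD4 were among the 3 distal members with the widest gap between their lowest SCC1 or SCC25 library and their highest SCC6 library. The first shows a RUNX word, and the second a p53 family decamer beside a GATA word. The SPATA18 sequence is the exon-free part of the 300 bases at the promoter region of a gene known as a p53 target in mitochondrial quality control, and none of these words is in those 300 bases.
PRPS1 (X:106898289-106898588, between genes): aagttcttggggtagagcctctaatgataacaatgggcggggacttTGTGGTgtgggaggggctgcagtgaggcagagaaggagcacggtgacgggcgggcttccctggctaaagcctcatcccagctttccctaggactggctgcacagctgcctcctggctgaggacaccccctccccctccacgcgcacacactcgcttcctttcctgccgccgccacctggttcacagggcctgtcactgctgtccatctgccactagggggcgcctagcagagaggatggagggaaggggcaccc
PDCD4 (10:112622038-112622337, between genes): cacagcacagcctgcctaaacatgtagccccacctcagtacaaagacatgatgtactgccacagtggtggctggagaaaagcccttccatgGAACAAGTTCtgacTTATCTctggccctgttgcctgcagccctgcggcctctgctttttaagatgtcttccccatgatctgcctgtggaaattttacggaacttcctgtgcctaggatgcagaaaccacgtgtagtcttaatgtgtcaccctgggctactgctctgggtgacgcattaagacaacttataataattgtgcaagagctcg
SPATA18 (4:52917958-52918089, exon-free part at the promoter): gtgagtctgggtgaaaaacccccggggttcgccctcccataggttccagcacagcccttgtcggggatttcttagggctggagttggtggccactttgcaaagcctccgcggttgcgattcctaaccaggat

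Members were chosen by their peak calls, so the signal below describes them and was not tested between lines. The deposited signal is reads per region after the authors' scaling, and 1 read, the lowest value listed, also where there may have been none, was worth 0.331 to 1.95 units depending on the library. The median member signal was 72.0 in SCC1 and 53.5 in SCC25. By library, the medians ran from 65.7 to 80.7 in SCC1, from 49.2 to 58.8 in SCC25 and from 5.05 to 6.28 in SCC6, so all SCC6 libraries lay far below the others. Over members, the median difference on log2(signal + 1) was 3.44 for SCC1 minus SCC6 and 3.01 for SCC25 minus SCC6, where all regions had medians of 0.01 and -0.01. Every SCC1 and SCC25 library lay above every SCC6 library in 933 members (90.4%), a pattern found in 7.90% of all regions, and at the other 99 members the lines overlapped. Member signal was higher in SCC1 than in SCC25, which describes the chosen regions and does not rank the lines. The rule used peaks, of which SCC1 libraries held 13035 to 36033 each and SCC25 libraries 18642 to 81963. The median SCC25 minus SCC1 difference was -0.44 on log2(signal + 1) (middle 50% of members, -0.82 to 0.00; all regions, -0.12), with SCC1 higher by at least 1 log2 unit at 176 members and SCC25 higher by that much at 33.

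**Figure D1:**
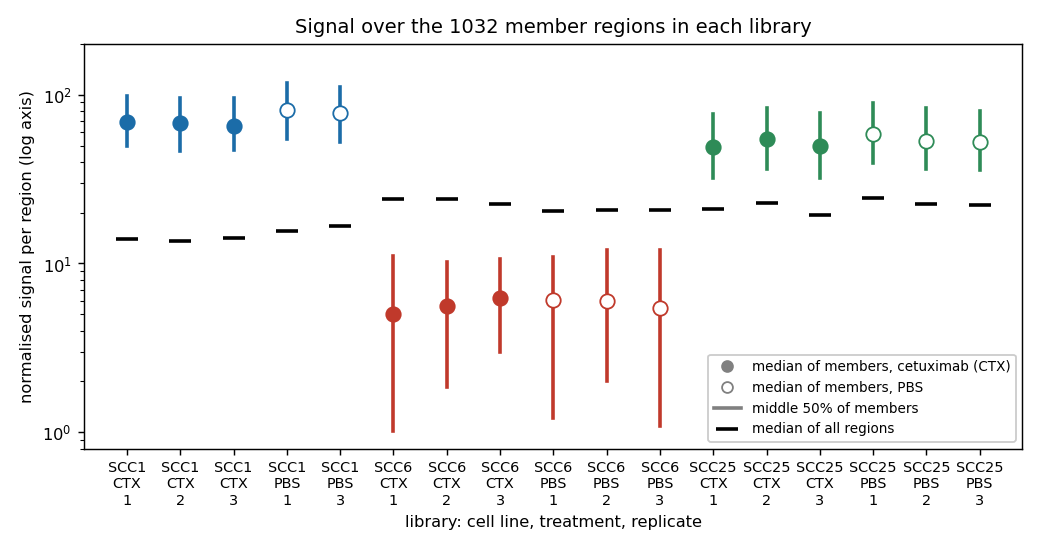
Normalised signal (log axis) over the 1032 members in each of the 17 libraries, by line, treatment and replicate. Circles are medians, coloured bars the middle 50% of members, and black dashes the median of all regions; the SCC6 medians lie between 5.05 and 6.28 while those of SCC1 and SCC25 lie between 49.2 and 80.7.

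The absence in SCC6 was one of called peaks and not of every read. At 62 members each SCC6 library was at the floor of 1 read, and 47 of these were above it in at least 1 library of another line, while 15 members were at the floor in all 17 libraries despite their peaks and have no usable signal. SCC6 libraries were not the shallow ones: reads in regions ran from 4098164 to 15017130 in SCC6, from 2194851 to 4171650 in SCC1 and from 2513828 to 13408698 in SCC25. Members with a peak in exactly 3 SCC1 libraries (421) had median signals of 57.2, 6.16 and 47.5 in SCC1, SCC6 and SCC25, and regions with 2 such libraries, just outside the rule (904), had 37.8, 6.50 and 46.1. The SCC25 border looked alike, with 61.0, 5.52 and 33.7 for the 241 members with exactly 3 SCC25 peaks and 57.9, 6.03 and 27.0 for the 173 regions with 2. Regions with 1 SCC6 peak (626) had 66.0, 14.4 and 50.8, and 526 of them owed it to the third SCC6 cetuximab replicate, the deepest library. Regions with peaks in all 6 SCC6 libraries as well (13773) had medians of 128, 122 and 104. Only 100 members had a peak in all 11 SCC1 and SCC25 libraries, and 128 just met the minimum in both lines.

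Line identity was checked on marker promoters. The epithelial genes CDH1, EPCAM and GRHL2 held a promoter peak in 4 or more libraries of each line, while other squamous genes were uneven. KRT14 and DSG3 held one in no SCC6 library (3 and 1 SCC1, 3 and 4 SCC25 libraries), whereas TP63, the gene of p63, held one in 5 SCC6, 0 SCC1 and 2 SCC25 libraries, KRT5 in 3, 1 and 4, and KRT17 in 5, 4 and 3. The immune and endothelial genes PTPRC, CD3E, PECAM1 and CDH5 had no promoter region among those analysed. The fibroblast collagen gene COL1A1 held a peak in 3 SCC1, 6 SCC6 and 5 SCC25 libraries, and the melanocytic genes MITF and PMEL in 5 or more of each line, so these promoters did not separate the lines. PBS libraries tended to give a peak at more members than cetuximab libraries: 973 and 964 against 416 to 892 in SCC1, and 894 to 1030 against 350 to 937 in SCC25. They also held more peaks in all, with 36033 and 34763 against 13035 to 27086 in SCC1 and 49094 to 81963 against 18642 to 52665 in SCC25.

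Members were mostly distal elements. A protein-coding start site lay within 1 kb of 87 (8.43%), against 13.5% of all regions and 48.9% of the 13773 regions with peaks in all lines. Introns held 398 (38.6%, all regions 37.1%), intergenic DNA 359 (34.8%, all regions 32.3%), non-coding genes 151 (14.6%, against 17313 of the 115087 regions), coding exons 21 (2.03%, all regions 0.803%) and UTRs 16 (1.55%, all regions 1.22%). The median distance to a start site was 35.1 kb (all regions 36.4 kb), and 26.6% of members lay over 100 kb away (all regions 29.7%). Their median GC content was 52.6% against 45.9% for all regions. Members spread over many genes, with 903 distinct nearest genes of which 797 had a single member and 19 had 3 or more. By chromosome the share of regions that were members ran from 0.130% on 19 to 1.11% on 18, and chromosome X, with 30 members, held 11 of the 47 at the floor in SCC6 alone.

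Some of the members without SCC6 signal lay in silent stretches. In SCC6, 8 runs of 5 or more consecutive regions were at 1 read in all 6 libraries, with each region above it in at least 1 library of another line. These runs held 69 regions and 11 members, so that 36 of the 47 members at the floor in SCC6 alone lay outside them. Such runs also occurred in the other lines, 57 in SCC1 and 13 in SCC25. Not all SCC6 runs were silent in SCC6 alone. Median signals in SCC1 and SCC25 were near the floor too at 5:69006047-70016058 (1.30 and 0.785) and X:48900811-52950413 (2.23 and 1.59). Among runs of consecutive regions with no SCC6 peak, 4 held 3 members each, the most of any run, and the 3 of them with the most regions, on chromosomes X and 9, are described here; the other, 18:6960652-6995366, had 3 regions. The first spanned X:106697636-107094813 (397 kb), where 17 regions gave 102 SCC6 values, all at 1 read, while their median signal was 44.2 in SCC1 and 51.9 in SCC25. Its members were the promoter of PRPS1, which makes the phosphoribosyl pyrophosphate of nucleotide synthesis, the intergenic region printed above, and an intron of TSC22D3, the glucocorticoid-induced leucine zipper. At the PRPS1 promoter (X:106871417-106871815) SCC1 read 118, 77.9 and 79.8 under cetuximab and 103 and 117 under PBS, and SCC25 read 107, 124 and 138 against 149, 110 and 118. Both lines were high in all libraries there.

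The other X run, X:105854987-106161383 (306 kb), held 8 regions with all 48 SCC6 values at 1 read, and medians of 54.3 in SCC1 and 85.1 in SCC25. Its members were the promoters of RADX, a single-stranded DNA binding protein of replication forks, and TBC1D8B, and an intron of RADX. Together these runs lay in a span of 1840 kb, X:105712588-107556539, with 56 regions and 10 members, of which 48 regions were at the floor in every SCC6 library. The other 8 were not, and one of them reached 189 reads in a single SCC6 library. SCC6 peaks were also called at 13 regions of the span, 5 of them at the floor, with a median width of 201 bases against 448 for the members there. Whether closed chromatin or missing DNA lies behind these stretches cannot be told apart.

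The run on chromosome 9 held the cell cycle inhibitors. It spanned 9:21904477-22052959 (148 kb) with 8 regions, of which 7 were at 1 read in every SCC6 library, and the flanking regions had a median SCC6 signal of 45.5. The promoter of CDKN2B (9:22008709-22009614), which encodes the CDK4 and CDK6 inhibitor p15, read 222, 206 and 260 under cetuximab and 324 and 241 under PBS in SCC1, and 108, 123 and 81.5 against 143, 144 and 130 in SCC25. All 6 SCC6 libraries were at 1 read there, and the SCC1 libraries were all above the SCC25 libraries. A CDKN2A promoter region (9:21994285-21994922) read 109 to 150 in SCC1 and 50.9 to 99.2 in SCC25, and again 1 read in each SCC6 library. CDKN2A encodes p16 and p14ARF, and which of these products starts at the region was not resolved. The last of its members, in a non-coding gene 32.6 kb from CDKN2B, averaged 73.0 ± 15.6 (SD, n = 5) in SCC1 and 28.6 ± 7.82 (SD, n = 6) in SCC25.

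A similar pair lay at GSTT1 on chromosome 22, a glutathione transferase whose gene is known to be deleted in part of the population. Its promoter (22:24384130-24384486) read 46.9 to 66.2 in SCC1 and 51.7 to 67.3 in SCC25, and 1 read in all 6 SCC6 libraries. This gene was named after its values were seen, because 2 of its 2 regions were members.

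Values after ± are SDs over the 5 SCC1, 6 SCC6 or 6 SCC25 libraries for a level, and standard errors for a treatment change. Among promoters, the 10 members with the highest signal were those of LRRIQ4, SPATA18, TBX18, ATG4A, CDKN2B, SH3D21, DENND2D, IL6, ZHX2 and KHDC1L. The TBX18 promoter (6:85474063-85474663), which belongs to a T-box factor of mesenchymal and heart development, showed the highest SCC1 signal of the 10. SCC1 read 322, 372 and 347 under cetuximab and 397 and 404 under PBS, and SCC25 83.0, 85.3 and 119 against 110, 119 and 83.1. SCC6 read 0.669 to 2.02, so the 3 lines fell into separate levels. The ATG4A promoter (X:107334457-107335262), for a protease that processes ATG8 proteins in autophagy, lay in the silent X span and read 149 to 185 in SCC1 and 177 to 211 in SCC25. At LRRIQ4 (3:169530012-169530961) SCC1 averaged 207 ± 22.5 (SD, n = 5), SCC25 209 ± 16.4 (SD, n = 6) and SCC6 14.5 ± 3.47 (SD, n = 6).

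Several of these promoters kept some reads in SCC6. DENND2D (1:111746400-111747296), which encodes a Rab exchange factor, read 21.8 to 40.1 in SCC6, against 150 ± 31.8 (SD, n = 5) in SCC1 and 124 ± 16.3 (SD, n = 6) in SCC25. The IL6 promoter (7:22766028-22767074), of the inflammatory cytokine interleukin-6, read 13.2 to 15.2 under cetuximab and 19.3 to 26.1 under PBS in SCC6, 158 to 242 in SCC1 and 83.1 to 110 in SCC25. These lines did not overlap at IL6, and none of the treatment tests there passed (adjusted p by limma, 0.161 to 0.776 in single lines). ZHX2 (8:123874848-123875491), a repressor of fetal liver genes, was higher in SCC25 (126 to 196) than SCC1 (68.1 to 138), with the 2 SCC1 PBS libraries inside the SCC25 range.

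**Figure D2:**
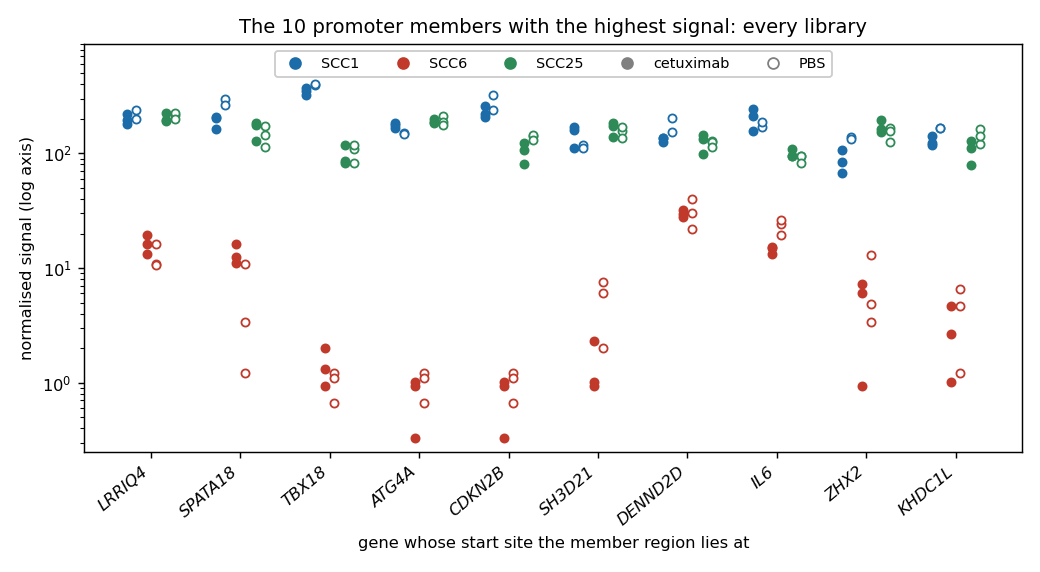
Normalised signal (log axis) of the 10 promoter members in every library, filled circles for cetuximab and open circles for PBS. SCC6 lies below SCC1 and SCC25 at every gene, from 0.331 at ATG4A and CDKN2B to 40.1 at DENND2D.

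Of the distal members, the widest gaps were at RNF128, PRPS1, PDCD4, ANKRD33B, IMPA2, PTPN2, COL4A6, FGF18, SIRPA and KCNRG. The region nearest to RNF128, a ubiquitin ligase of T cell anergy, read 150 to 222 in SCC1 and 182 to 265 in SCC25, with 1 read in every SCC6 library. It is the RADX intron of the silent X run described above. The region 9.14 kb from PDCD4 (10:112621963-112622411), a translation inhibitor and tumour suppressor, read 169, 189 and 122 under cetuximab and 187 and 205 under PBS in SCC1. In SCC25 it read 173, 152 and 124 against 178, 144 and 157, and in SCC6 0.928 to 2.68, with 4 reads at most in a library. PDCD4 lay in no silent run. The PTPN2 intron, within a phosphatase that acts on JAK and STAT proteins, averaged 130 ± 21.5 (SD, n = 5) in SCC1, 130 ± 21.5 (SD, n = 6) in SCC25 and 1.43 ± 0.585 (SD, n = 6) in SCC6. The COL4A6 intron (X:107639428-107640008), in a basement membrane collagen, averaged 91.5 ± 29.5 (SD, n = 5) and 87.2 ± 13.2 (SD, n = 6) in SCC1 and SCC25, with 1 read in each SCC6 library.

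ANKRD33B held the highest mean among the distal members named for their gap. This UTR region (5:10655399-10655848) read 212, 191 and 196 under cetuximab and 317 and 342 under PBS in SCC1, and 210, 203 and 214 against 266, 252 and 243 in SCC25. All cetuximab libraries lay below all PBS libraries in both lines, while SCC6 read 0.928 to 4.96. The limma change was -0.72 ± 0.181 (SE) in SCC1 (adjusted p = 0.00306, 5.0e-04 to 0.141 over the alternatives) and -0.50 ± 0.0919 over both lines (adjusted p = 0.00149), and -0.28 ± 0.117 in SCC25 alone (adjusted p = 0.298).

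By function, 37 members lay within 100 kb of a gene of 15 lists, where 0.936% of the 80851 regions near any protein-coding gene were members. Among squamous lineage genes, 4 of 113 regions were members, at KRT14, SOX2 and TRIM29. The KRT14 promoter (17:39743131-39743396), for the keratin of basal cells, read 78.7, 60.3 and 72.0 under cetuximab and 35.1 and 42.4 under PBS in SCC1, 30.1 to 39.9 in SCC25 and 1.01 to 2.79 in SCC6. SCC1 was higher under cetuximab in every library without passing the test (0.84 ± 0.315, adjusted p = 0.0673). A region 15.7 kb from SOX2 (3:181413122-181414000), a factor of squamous progenitors, averaged 187 ± 19.8 (SD, n = 6) in SCC25, 121 ± 28.8 (SD, n = 5) in SCC1 and 5.94 ± 1.72 (SD, n = 6) in SCC6. The TRIM29 promoter (11:119999505-119999806) averaged 119 ± 34.8, 67.0 ± 13.8 and 9.84 ± 2.50 in SCC1, SCC25 and SCC6. Keratinocyte differentiation genes gave 2 of 71 regions, near DSG1 and in ZNF750, a p63 target that drives terminal differentiation (144 ± 35.1 in SCC1, 66.5 ± 13.3 in SCC25, 4.22 ± 1.75 in SCC6).

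Adhesion genes gave 5 of 168 regions, at CDH13, DSP, NECTIN1 and PKP1. PKP1 encodes the desmosomal plaque protein plakophilin-1, and both its members opened under cetuximab in SCC1. Its promoter (1:201252376-201252760) read 165, 113 and 125 against 50.7 and 83.7 (1.01 ± 0.254, adjusted p = 0.00314, 1.4e-04 to 0.334 over the alternatives), and 70.8 to 104 in SCC25 and 3.35 to 15.2 in SCC6. The NECTIN1 intron (11:119562589-119563040) averaged 204 ± 44.1 in SCC1, 111 ± 17.0 in SCC25 and 23.2 ± 8.33 in SCC6. EMT and mesenchymal genes gave 4 of 170, near TGFBI, in COL5A1 and ITGA5, and in a coding exon of ZEB2 (2:145146838-145147506; 85.5 ± 19.5, 59.4 ± 9.21 and 1.35 ± 0.739 in SCC1, SCC25 and SCC6), a repressor of CDH1.

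Receptor genes varied. EGFR family genes had 1 member of 139 regions (0.719%), in an intron of the ligand NRG4 (51.4 ± 21.1 in SCC1, 30.5 ± 5.45 in SCC25, 3.08 ± 2.15 in SCC6). Other receptor tyrosine kinases had 5 of 207 (2.42%), at IGF1R, KIT and MET. The region 85.8 kb from IGF1R (15:99105578-99105931) read 107 to 138 in SCC1, 26.6 to 79.1 in SCC25 and 4.64 to 18.1 in SCC6. The TFAP2 family had 1 of 37, a region 6.56 kb from TFAP2A (6:10426434-10426958), and it was among the least separated: 121 to 158 in SCC1, 53.1 to 82.7 in SCC25 and 27.9 to 55.6 in SCC6, so that SCC6 and SCC25 overlapped. WNT genes had 3 of 240 (DKK1, TCF7L1, WNT4), HOX genes 2 of 52 (HOXB9, HOXD11), TGF-beta and BMP genes 1 of 239 (BMP2), and NOTCH genes 0 of 127. Cytokines had 4 of 94 (IL6, CSF1 and CXCL14), interferon genes 1 of 50 (OAS2), AP-1 genes 1 of 110 (FOSL2), and cell cycle genes 3 of 119, all at CDKN2A and CDKN2B.

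The 37 list members were also read against the treatment tests. In SCC1, 3 were higher (8.11%; both PKP1 regions and COL5A1) and 1 was lower (2.70%), the CXCL14 region (-0.88), where 4.41% and 6.37% of all regions tested were called. In SCC25 none of 37 passed, with 0.0348% and 0.243% of all regions called. Of the 14 tested in SCC6, 2 were lower (14.3%, all regions 10.4%), at BMP2 and ITGA5 (-2.57 and -1.71). These counts are too small to set the lists apart from all regions. The COL5A1 intron (9:137594910-137595238), in a fibrillar collagen gene, read 95.2, 64.2 and 105 against 40.3 and 46.9 in SCC1 (0.97 ± 0.295, adjusted p = 0.0182, 0.00127 to 0.247 over the alternatives).

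The genes nearest to the most members were BCL11A, ZFAT, ZNF462 and SOX9 with 4 each. A further 15 genes had 3, of which ARHGAP28, with the fewest regions nearest to it, had its members in the neighbouring gene LAMA1, a laminin chain. BCL11A, a zinc finger repressor known for silencing fetal haemoglobin and expressed in squamous carcinoma, had intronic members at 19.1 and 39.4 kb (135 ± 32.3 and 74.3 ± 9.09 in SCC1, 163 ± 24.9 and 103 ± 12.2 in SCC25) and distant members at 246 and 271 kb, of which the furthest averaged 168 ± 30.7, 67.0 ± 13.9 and 1.40 ± 0.689 in SCC1, SCC25 and SCC6. By these means SCC25 was the higher line in the introns, within overlapping ranges at the first, and SCC1 at the furthest region. SOX9, a factor of hair follicle and cartilage progenitors, had members 90.2 to 912 kb away, and ZNF462 had 4 within 89.0 kb. A ZNF462 region 2.27 kb from the start kept 39.9 ± 9.80 in SCC6 against 158 ± 17.8 in SCC1 and 201 ± 31.7 in SCC25.

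The sequences of the members were compared with other regions over 1 kb from a start site, in 300 bases on each centre, for 20 words on both strands. The AP-1 word was in 37.8% of the 945 distal members, in 34.9% of all distal regions and in 50.7% of the distal regions with peaks in all lines. The TFAP2 word was in 16.9% of distal members against 8.49% of all distal regions. This share was not particular to members, with 15.3% of the distal regions with peaks in all lines. It was 17.5% in those of SCC1 and SCC6, and 7.83% in those of SCC6 and SCC25. The p53 family decamer was in 18.5% of distal members against 12.6% of all distal regions. In the same 3 comparison sets it was in 14.2%, 15.6% and 15.3%. RUNX and GATA words were the scarcer ones, at 15.3% against 25.2% and 9.84% against 20.3%. For RUNX this placed the members near the distal regions of SCC1 and SCC6 (16.4%) and far from those of SCC6 and SCC25 (40.9%). These shares describe the regions, and a word is not a bound site. Over all members, including promoters, the shares were 36.0% for AP-1, 17.3% for TFAP2, 14.8% for RUNX, 9.59% for GATA and 17.8% for the p53 family decamer, against 31.5%, 11.8%, 23.2%, 18.2% and 11.8% of all regions. The same words read backwards, meant as a control of base composition, were in 8.43%, 3.49%, 14.5%, 8.33% and 3.29% of members and in 7.99%, 5.42%, 14.1%, 15.3% and 3.31% of all regions. Read backwards, the TFAP2 word holds CG pairs that the word itself lacks, so for TFAP2 it is not a like control.

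Base composition moved with these shares, since distal members had a median GC content of 52.0% against 44.3% for all distal regions. In bins of GC content, the RUNX word was less frequent in members than in other distal regions in all 5 bins, and most so between 50 and 55% GC (10.5% against 27.2%). GATA was also lower in each bin, by a smaller margin (19.2% against 27.8% below 45% GC, 8.22% against 12.1% between 50 and 55%). The p53 family decamer was more frequent below 55% GC (19.7% against 9.75% in the lowest bin, 22.8% against 14.1% between 50 and 55%) and less frequent above it (22.1% against 27.4% between 55 and 60%). For AP-1 the members differed from other regions mainly below 45% GC (51.8% against 33.8%), and lay under the regions open in all lines in every bin. The TFAP2 word was also more frequent in each bin, from 13.2% against 13.0% between 50 and 55% GC to 20.6% against 14.5% between 55 and 60%, and was most frequent above 60% GC in members and in other regions (35.5% and 33.2%).

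**Figure D3:**
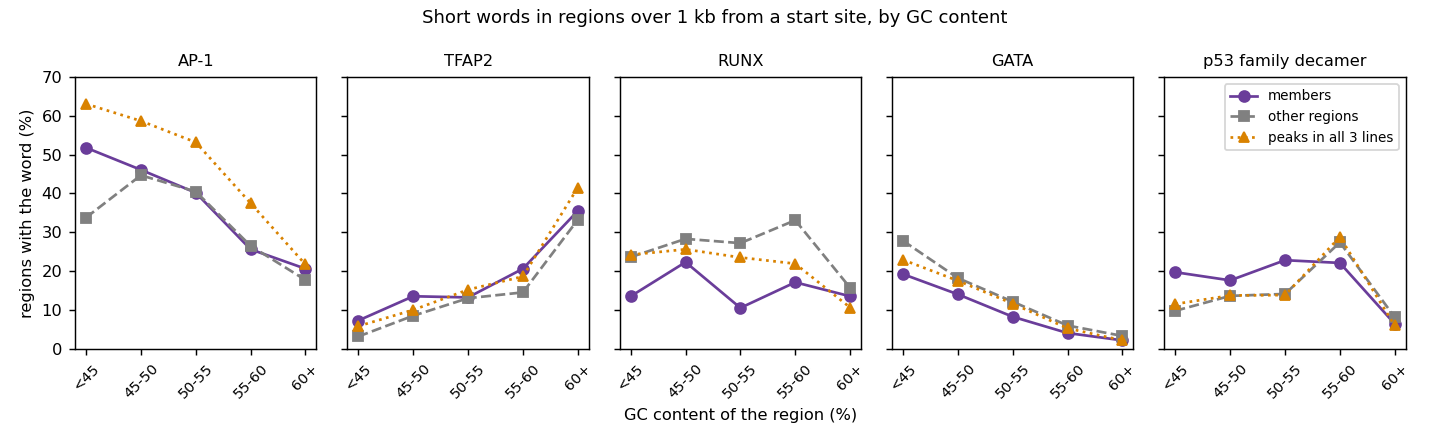
Share of regions over 1 kb from a start site that held each word (vertical axis, %), by GC content of the region (%), for members, for other regions and for regions with peaks in all 3 lines. The members lie below the other regions for RUNX and GATA in every bin, and above them for the p53 family decamer below 55% GC.

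The effect of cetuximab was tested in each line by limma on log2(signal + 1), across all regions that passed a filter on low mean signal. The rule counted peaks of both treatments. In SCC1, 14 members had peaks under cetuximab alone, and in SCC25, 76 had peaks under PBS alone. At such members the rule itself drew on treatment. PBS libraries also tended to give peaks at more members, 973 and 964 against 416 to 892 in SCC1. The treatment calls of members are therefore descriptive and not independent of the rule. In SCC1, 1005 members were tested and 25 were higher and 119 lower at an adjusted p under 0.05 (2.49% and 11.8%), where 4.41% of the 86299 regions tested were higher and 6.37% lower. The median member changed by -0.23, against -0.09 over all regions, and 683 members (68.0%) had a negative change. This median varied with the peaks that made a region a member. It was -0.32 with exactly 3 SCC1 peaks and -0.12 with peaks in all SCC1 and SCC25 libraries. Centring each library on its own median put the median of all regions at 0.11, and the split became 63 higher and 67 lower with a member median of -0.03, so the members stayed below all regions by a like margin while the excess of lower calls over higher ones was lost. All cetuximab libraries lay below all PBS libraries at 363 members (36.1%) and above them at 122 (12.1%), against 24.1% and 15.8% of all regions tested. Only 2 PBS libraries entered, and the counts rested on them: without the first, 6 were higher and 22 lower, and without the third, 10 and 36. Leaving out the first cetuximab replicate gave 11 and 86, and leaving out the second, 43 and 146.

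Other distal regions leaned the same way. Those outside the set with peaks in 3 or more SCC1 and 3 or more SCC25 libraries, and with SCC6 peaks too, were higher at 3.31% and lower at 11.6% of 10699 (median -0.18), while distal members were higher at 2.28% and lower at 12.3% of 920 (median -0.23). Promoters differed more. Promoter regions of this kind outside the set were higher at 15.3% and lower at 0.834% of 7311, whereas of 85 promoter members 4 were higher (C16orf86, L3MBTL3, MMP24OS, PKP1) and 6 lower (FBLN2, GBP4, MAB21L3, SOX21, SPATA18, ZNF33B). The promoter members are few, and this contrast was not tested.

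**Figure D4:**
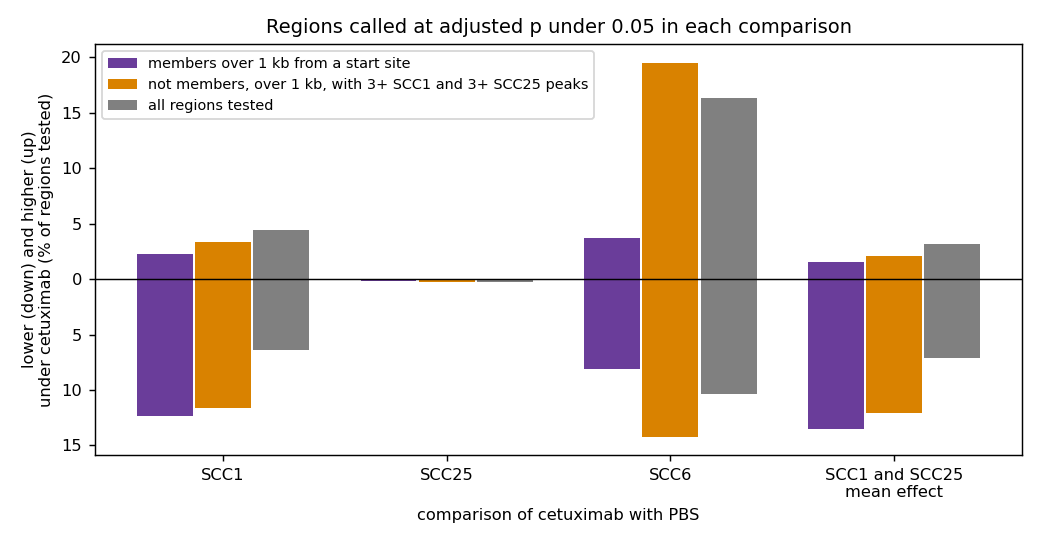
Share of tested regions higher (bars up) and lower (bars down) under cetuximab at adjusted p under 0.05 in each comparison, for members over 1 kb from a start site, for other such regions with peaks in 3 or more SCC1 and 3 or more SCC25 libraries, and for all regions tested. In SCC1 the bars of members (2.28% and 12.3%) and of the other such regions (3.31% and 11.6%) are alike. In SCC6 members have far fewer calls, but by the rule they hold no SCC6 peak.

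The SCC1 changes with the smallest adjusted p were large and distal. A DGKG intron (3:186038606-186039219), in a diacylglycerol kinase gene, read 87.6, 70.1 and 93.9 under cetuximab and 258 and 266 under PBS (-1.64 ± 0.227, adjusted p = 2.0e-08, at most 3.6e-04 over the alternatives). A region in a non-coding gene 73.5 kb from PLET1 (11:112205065-112205494), a marker of epidermal progenitors, read 58.4, 89.5 and 76.7 against 246 and 207 (-1.60 ± 0.240, adjusted p = 2.2e-07). In both, every cetuximab library was under every PBS library by a wide margin. In the other direction, an intergenic region 348 kb from DAOA (13:106466464-106467469) read 176, 226 and 192 against 83.3 and 52.5 (1.56 ± 0.232, adjusted p = 1.7e-07). SCC6 kept 44.2 to 65.1 there without a called peak, a range that held the lower SCC1 PBS value. The PKP1 intron (1:201269094-201269429) read 124, 132 and 155 against 58.5 and 48.0 (1.35 ± 0.257, adjusted p = 6.0e-05), so the gene opened at its promoter and inside it. The DAOA region and the PKP1 intron had peaks in 3 SCC1 libraries each, the fewest the rule allowed. Their cetuximab values were the highest of SCC1, so these calls are descriptive and not independent of the rule.

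Among the promoters named above, SPATA18 (4:52917512-52918367) changed in SCC1 and SCC6. It read 202, 206 and 163 under cetuximab against 301 and 262 under PBS in SCC1 (-0.57 ± 0.188, adjusted p = 0.0332, 0.00411 to 0.443 over the alternatives). In SCC6 it read 16.2, 11.1 and 12.6 against 1.21, 3.35 and 10.9 (1.54 ± 0.569, adjusted p = 0.0383, 0.0321 to 0.166 over the alternatives). SCC25 read 113 to 184 with no passing change (0.19 ± 0.165, adjusted p = 0.649).

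The 119 members lower in SCC1 had changes of -2.09 to -0.52. The AP-1 word was in 52.1% of them, against 36.4% of the members tested, and in 61.9% of all regions called lower in SCC1 against 36.8% of all tested. Of the 25 higher members it was in 24.0%, and of all regions called higher in 13.6%. The lower members therefore carried the AP-1 word more often than the higher ones, as regions in the rest of the table did, and the difference was not tested. In SCC25, 103 of the 119 (86.6%) changed in the negative direction, with a median of -0.28, and none passed the test there. Of all members tested in SCC25, 67.4% were negative, with a median of -0.15. Of all regions lower in SCC1, 80.3% were negative in SCC25 and 1.03% were called.

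In SCC25 no member was higher and 2 were lower of 1000 tested, with 0.0348% and 0.243% of all 86315 regions called. At an unadjusted p under 0.05 there were 162 members (16.2%, all regions 13.2%). On the recovered reads, edgeR called 5 higher and 6 lower of the 1000 (all regions, 0.434% and 0.653%), and DESeq2 called 0 and 2 (0 and 0.200%, all regions 0.122% and 0.193%), shares close to those of all regions. The median change was -0.15 (all regions -0.08), and -0.03 with each library centred on its median, where all regions moved to 0.03. The region 318 kb from MCTP2 (15:95217344-95217758) read 68.9, 66.4 and 44.3 under cetuximab and 117, 108 and 108 under PBS (-0.91 ± 0.194, adjusted p = 0.0401, 0.0106 to 0.277 over the alternatives). The region 1.24 kb from RNF112 (17:19312954-19313202), a GTPase of neural differentiation, read 11.2, 15.6 and 26.6 against 55.4, 41.8 and 47.5 (-1.46 ± 0.314, adjusted p = 0.0411, 0.00380 to 0.316 over the alternatives). The RNF112 region had peaks in 3 SCC25 libraries, the fewest the rule allowed, and its PBS values were the highest of SCC25. Its call is therefore descriptive and not independent of the rule. Neither call held without any single SCC25 PBS library, when 0 members were called in each case. Higher values without a passing test were seen at FBLN2 (3:13664663-13665080; 0.69 ± 0.227, adjusted p = 0.181), a basement membrane fibulin, and RSPO2 (8:109151923-109152416; 0.53 ± 0.160, adjusted p = 0.146), a WNT agonist.

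Averaged over SCC1 and SCC25 in a joint fit, 16 members were higher and 129 lower of 1000, with 3.20% and 7.12% of all regions called, and the split was 51 and 60 with each library centred on its median. In 81 members (8.10%) all cetuximab libraries lay below all PBS libraries in both lines, and in 7 (0.700%) above, against 4.65% and 1.69% of all regions tested. Distal regions with the same peaks outside the set were again near the members, at 2.04% higher and 12.1% lower against 1.53% and 13.5%. The region 92.0 kb from THUMPD2 (2:40098382-40098881) read 92.7, 101 and 92.3 under cetuximab and 209 and 195 under PBS in SCC1, and 127, 122 and 136 against 209, 184 and 191 in SCC25 (-0.84 ± 0.112, adjusted p = 7.7e-05). Both lines moved together there. The rises were smaller, with 0.83 ± 0.212 near PLA2G4A (1:187213863-187214060, adjusted p = 0.0145, and 0.0809 without the third SCC1 PBS replicate), the cytosolic phospholipase of arachidonic acid release, and 0.67 ± 0.180 in the region 158 kb from ARID1B (6:156938591-156938894, adjusted p = 0.0191), a chromatin remodeller subunit. The ARID1B call was lost without the first or the third SCC1 PBS replicate (adjusted p = 0.0514 and 0.0842) or the second SCC25 PBS replicate (0.0583).

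Tested directly, the treatment effect of SCC25 minus that of SCC1 was positive at 9 members and negative at 7 (0.900% and 0.700%), shares near the 0.904% and 0.560% of all regions called. DGKG had a difference of 1.56 ± 0.271 (adjusted p = 0.00520), since SCC25 read 91.4, 132 and 124 under cetuximab and 108, 139 and 118 under PBS. The region 164 kb from ATP11B (3:182347261-182347653), a phospholipid flippase, read 47.0, 60.3 and 61.0 against 176 and 199 in SCC1 and 134, 120 and 149 against 176, 172 and 142 in SCC25 (1.45 ± 0.262, adjusted p = 0.00727). Each passed its own test in SCC1 and not in SCC25. The DAOA region went the other way (-1.80 ± 0.315, adjusted p = 0.00561), with SCC25 at 210, 158 and 101 against 185, 169 and 176. So did the region 327 kb from BTG1 (12:92212462-92213041), an antiproliferative gene, at 107, 93.4 and 95.5 against 45.5 and 25.7 in SCC1 and 83.0, 101 and 65.5 against 90.8, 91.6 and 90.8 in SCC25 (-1.65 ± 0.337, adjusted p = 0.0158, 8.7e-04 to 0.0909 over the alternatives). The PKP1 intron differed as well (-1.42 ± 0.294, adjusted p = 0.0175, 9.3e-04 to 0.0711 over the alternatives), as SCC25 read 61.9 to 72.4 in all libraries. The DAOA region and the PKP1 intron had the fewest SCC1 peaks allowed, so their differences are not independent of the rule.

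**Figure D5:**
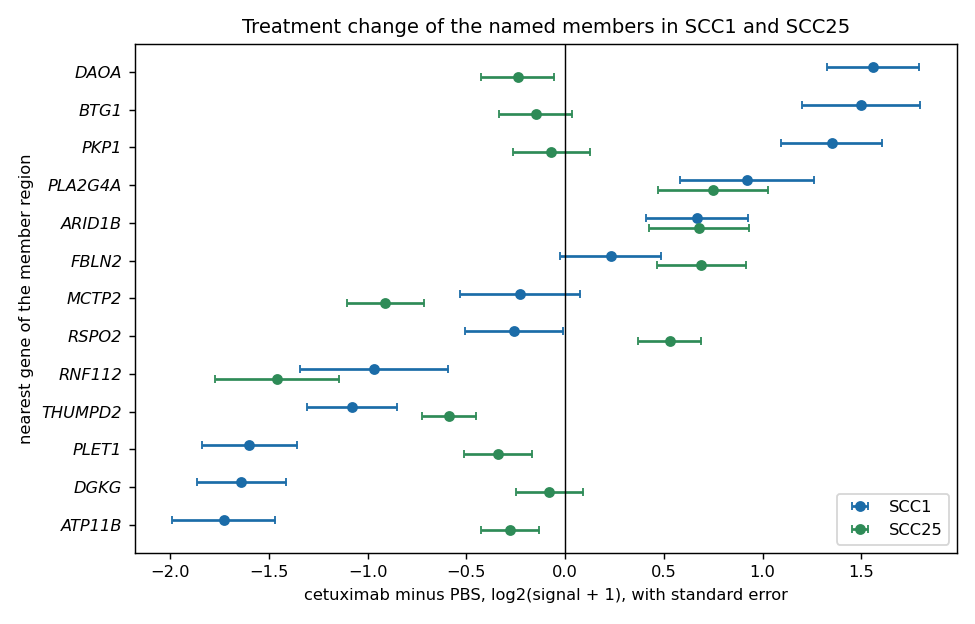
Change under cetuximab on log2(signal + 1), with standard errors, of the members named for a treatment comparison, in SCC1 and SCC25. DGKG and ATP11B are lower in SCC1 and DAOA, BTG1 and PKP1 higher, with SCC25 values between -0.28 and -0.07, while THUMPD2 and RNF112 are below 0 and ARID1B and PLA2G4A above 0 in both lines.

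In SCC6 most members were too low to test. The filter left 427 of the 1032, which are the members with the most residual reads, and 18 were higher and 32 lower, where 16.3% and 10.4% of all 86315 regions were called. With each library centred on its median the split was 9 and 65 (2.11% and 15.2%), and 11.3% and 18.8% of all regions were called, so members were below all regions in both directions under that scaling as well. With quantile normalization this held for higher calls only, at 2.33% and 14.0% of members against 12.5% and 14.0% of all regions. The rule barred any SCC6 peak in either treatment, so regions clearly open in SCC6 under either could not be members. Smaller shares of members called therefore come with the choice of members and are not a result about their response. The region 167 kb from SNX19 (11:130595952-130596440) read 28.3, 23.2 and 18.8 under cetuximab and 6.04, 2.01 and 3.26 under PBS in SCC6 (2.43 ± 0.484, adjusted p = 1.2e-04), still far under the 107 to 167 of SCC1. A region within ZBTB16 and 94.7 kb from NNMT (11:114033587-114033847) read 14.1, 26.9 and 16.9 against 1.21 to 5.35 (2.47 ± 0.549, adjusted p = 5.2e-04). These regions had no SCC6 peak in either treatment, although all cetuximab libraries exceeded all PBS libraries.

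The SCC6 losses started from low levels too. The region 82.0 kb from BMP2 (20:6665779-6666296), a bone morphogenetic protein, read 1.01, 4.64 and 2.98 against 18.1, 22.7 and 19.6 (-2.57 ± 0.534, adjusted p = 2.2e-04). In SCC25 it read 60.5, 82.7 and 72.6 against 109, 114 and 104 (-0.61 ± 0.179, adjusted p = 0.137), and in SCC1 23.4 to 69.0 (-0.58 ± 0.349, adjusted p = 0.308). The region 393 kb from OTOL1 (3:161607961-161608327) read 3.03, 4.64 and 7.60 against 25.4, 21.4 and 28.3 in SCC6 (-2.16 ± 0.443, adjusted p = 1.9e-04), and 118 to 142 in SCC25. Of the 59 members lower in SCC1 that could be tested in SCC6, 10 were called there (16.9%) and 37 changed in the negative direction (62.7%). Of all regions lower in SCC1 and tested in SCC6, 40.3% were called and 69.7% were negative, and 59.5% of all members tested in SCC6 were negative.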

How the data were processed

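ATAC-seq libraries of 3 cell lines under cetuximab or PBS were used, 17 of the 18 samples in the labels. Per the labels, reads were trimmed with Trim Galore 0.5.0, aligned to hg19 with Bowtie2 2.3.2, and handled with Picard 2.18 and SAMtools 1.9; the MACS2 version is not given in the sources used here. MACS2 was run by the authors on single libraries in broad mode, and the deposited peak files hold a pileup score, a fold enrichment and −log10 p and q values. The authors merged peaks and deposited a table of normalised signal per region, made with DiffBind. Every deposited signal was a whole multiple of what 1 read is worth in its library (100% of values, within 0.001 of a whole number), which gave reads per region, from 2194851 to 15017130 per library, with 1 read as the lowest value. Total reads are unknown from these files. Starts are printed as deposited.

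Members and lists were chosen with earlier results of these data known. Overlap was counted from 1 base. Treatment was tested on log2(signal + 1) with limma 3.58.1 in R 4.3.3, with a mean-variance trend and robust moderation, within each line, and for the mean and the difference of effects over SCC1 and SCC25 jointly, on all regions after leaving out the lowest 25% by mean signal, with Benjamini-Hochberg adjustment at 0.05. The difference between lines was not tested, because peaks chose the members. The fit was tested on simulated data. Alternatives were a pseudocount of 5, no filter, median centring, quantile normalization, edgeR 4.0.16 and DESeq2 1.42.0 on the recovered reads, a replicate block, leaving out each library, and other rules for a peak; the alternative without members whose peaks came from 1 treatment and the GC bins were chosen after seeing the data. On the recovered reads edgeR called 6.27% of regions higher and 6.50% lower in SCC1. Nearest genes and positions came from a GRCh37 annotation of 19807 protein-coding genes, and words were searched in 300 bases with pysam 0.24.0.

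Named regions followed a rule: the 10 promoter members with the highest signal, the 10 distal members with the widest gap between lines, for each treatment comparison the 2 higher and 2 lower members with the smallest adjusted p whose groups did not overlap (overlap was allowed for the difference of effects), the 5 genes with the most members (ties by fewest nearest regions), the 3 runs with the most members (ties by most regions), and up to 3 members per list. GSTT1, KRT14, CXCL14 and ITGA5 were named after their values were seen. Same-numbered replicates did not deviate together (r from -0.0228 to 0.0399). Some region sequences and a marker gene are not reported here.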

Additional observations from a re-analysis of the deposited data

Results flagged for a closer look

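The treatment effect differed between SCC25 and SCC1 by an interaction test at 9 members with a higher effect in SCC25 and at 7 with a lower one (limma, adjusted p under 0.05), which is 0.900% and 0.700% of members against 0.904% and 0.560% of all regions. The named members that stood out this way were DGKG (difference 1.56) and ATP11B (1.45), which were lower under cetuximab in all 3 SCC1 libraries, and DAOA (-1.80) and BTG1 (-1.65), which were higher in all 3. No group of libraries was tested for single outlying samples, since groups held 3 or fewer.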

How the results depend on the processing

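The number of members depended on what counted as a peak: 402 with at least 0.5 of the region covered by peaks (219 of them members), 39 with peaks of −log10 q of at least 5, 19 with that threshold in SCC1 and SCC25 alone, 100 with a peak in every SCC1 and SCC25 library, 3510 by PBS libraries alone (903 shared), and 664 to 1558 with 1 library left out, the fewest without the first SCC1 PBS replicate and the most without the third SCC6 cetuximab replicate. Centred on its median, each library gave 63 higher and 67 lower in SCC1, 0 lower in SCC25, 9 and 65 in SCC6, 51 and 60 for the mean effect and 11 members with a lower effect in SCC25 than SCC1. Quantile normalization gave 45 higher in SCC1, 0 lower in SCC25, 10 and 60 in SCC6 and 82 lower for the mean. By edgeR on recovered reads, 45 were higher in SCC1, 5 higher and 6 lower in SCC25, 49 higher for the mean, and 22 and 13 for the difference. By DESeq2, 63 were lower in SCC1, 9 higher in SCC6, 36 higher for the mean, and 19 and 15 for the difference. With no filter, 56 were higher in SCC6 and 3 had a lower difference. Without members whose peaks came from 1 treatment, 1 was lower in SCC25. The cause of these changes was not tested.

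With 1 library left out, the counts ran from 6 to 43 higher and 22 to 146 lower in SCC1, 0 to 1 and 0 to 5 in SCC25, 7 to 22 and 21 to 34 in SCC6, 8 to 23 and 59 to 153 for the mean, and 2 to 19 and 1 to 11 for the difference. Under a replicate block, whose numbers did not pair the libraries, 48 were higher and 147 lower in SCC1, 0 and 9 in SCC25, 18 and 36 in SCC6, 21 and 142 for the mean, and 12 and 7 for the difference. The member median kept its sign under each alternative run, from -0.27 to -0.03 in SCC1, -0.20 to -0.03 in SCC25, -0.39 to -0.13 in SCC6, -0.21 to -0.02 for the mean and 0.03 to 0.15 for the difference. Of 290 alternatives for the 20 named treatment results, 268 kept their side of the threshold, 20 fell short of it, 2 passed it newly and 0 reversed.

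The SCC1 minus SCC6 median was 3.99 with centring and 3.91 with quantile normalization, SCC25 minus SCC6 was 3.38 with the latter, and SCC25 minus SCC1 was -0.99 with centring. Within 3 kb, 14.0% of members had a start site. Over whole regions the words were in 42.2% (AP-1), 23.3% (TFAP2), 20.3% (RUNX), 12.2% (GATA) and 21.6% (p53 family decamer) of members. Depth limits the SCC6 values, where 5 to 19 reads was the median member, and 1 read is the lowest value listed, so a zero cannot be seen.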
